A study of Mus musculus with 6 samples.

Results

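The microRNAs miR-155 and miR-21 were followed across 6 samples of mouse CD8+ T cells. They were chosen by name, as the assays named mmu-miR-155 and mmu-miR-21, and gave 2 of the 350 miRNA assays in the series. All samples were CD8+ T cells of the pMel-1 transgenic line, whose T cell receptor recognises gp100, a protein of melanocytes and melanoma cells. In the DC-primed group (3 samples) the T cells had been activated with bone marrow-derived dendritic cells matured with lipopolysaccharide. In the B cell-primed group (3 samples, the control) they had been activated with B cells of the spleen that presented a gp100 peptide. Both groups were cultured in vitro for 3 days, and the samples come in pairs, 1 of each group in each of 3 rounds. The age and sex of the mice, the pooling of animals and any step that removed the priming cells before RNA extraction are not given in the labels. The readout was SYBR Green quantitative RT-PCR, and the comparison asked which of them differed with the cell that had primed the T cells.

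A microRNA is a short RNA that guides Argonaute proteins to messenger RNAs, mainly through its seed, the bases near its 5′ end, and so lowers the output of those genes. miR-155 is cut from the transcript of a non-coding host gene, Mir155hg (also called Bic), which is switched on by antigen receptor and Toll-like receptor signalling. In CD8+ T cells it is needed for full effector responses, and its known targets include Socs1 and Inpp5d, brakes on cytokine and phosphoinositide signalling. miR-21 is among the most abundant miRNAs of activated T cells and of many myeloid cells, and its known targets include Pdcd4, a brake on translation.

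The mature sequences are shown because each miRNA was read with its own forward primer and because the seed sets which targets it can reach. They come from RefSeq (GRCm38.p6), which held both members, matched as mmu-miR-155-5p and mmu-miR-21a-5p. Capitals mark the seed, bases 2 to 8.
miR-155: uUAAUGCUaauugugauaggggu
miR-21: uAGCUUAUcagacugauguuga
miR-21*: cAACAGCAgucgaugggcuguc
The 2 seeds differ, and the mature sequences share the same base at 9 of 22 positions. Among 1738 mature mouse sequences in the table, none other had the seed of miR-155 and 1 other, miR-21c, had that of miR-21. miR-21c matched miR-21 at 16 of 21 positions and had no assay among the 350. In the hairpins below, capitals mark the strand read by each assay, at bases 4 to 26 of the miR-155 hairpin and 18 to 39 of the miR-21 hairpin.
Mir155: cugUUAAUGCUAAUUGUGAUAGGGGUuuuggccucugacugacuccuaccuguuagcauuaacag
Mir21a: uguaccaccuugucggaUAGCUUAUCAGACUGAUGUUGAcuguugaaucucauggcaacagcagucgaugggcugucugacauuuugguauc
The first lies at chr16:84714140-84714204 on the plus strand, within the lncRNA gene Mir155hg. The second lies at chr11:86584067-86584158 on the minus strand, within the span of the protein-coding gene Vmp1. The passenger strand miR-21*, from the other arm of the miR-21 hairpin, had an assay. The other arm of miR-155 had none, and no human-named assay was for either miRNA.

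Each sample has a pair of values for each miRNA. The first is the threshold cycle (Ct), the PCR cycle at which signal appears, so that a lower Ct means more RNA. The second is the level, minus dCt, which is the authors' per-sample number minus Ct. A step of 1 in level is a 2-fold difference, and a higher level means more miRNA. The number of assays with a Ct below 35 was 337, 327 and 280 in DC-primed samples 1, 2 and 3 and 341, 336 and 336 in B cell-primed samples 1, 2 and 3. DC-primed sample 3 stood apart with the latest Ct values, 30.5 on average for a tested assay, where DC-primed samples 1 and 2 averaged 26.3 and 28.4 and the B cell-primed samples 26.4, 27.2 and 27.6. Results below are therefore also given without it. Each member has 1 Ct per sample. Wells of 1 control RNA repeated within 1 part of the table, in the parts that hold the members, differed by a median of 0.19 cycles and at most 1.19 cycles.

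miR-155 was higher in the DC-primed sample than in its B cell-primed partner in rounds 1 and 2 and lower in round 3. Its Ct was 18.13, 20.04 and 27.88 in DC-primed samples 1, 2 and 3, against 20.79, 20.58 and 21.80 in B cell-primed samples 1, 2 and 3. On the level scale these were 8.05, 8.42 and 2.58 in DC-primed cells and 5.56, 6.54 and 5.83 in B cell-primed cells. The groups overlap, with 2 DC-primed samples above all 3 B cell-primed samples and the third below all of them. The Ct range within the DC-primed group was 9.75 cycles, against 1.22 cycles within the B cell-primed group.

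The mean level of miR-155 was 6.35 ± 3.27 in DC-primed cells and 5.98 ± 0.51 in B cell-primed cells (mean ± SD, n = 3 each). The difference was 0.37 ± 1.43 (SE; 95% confidence interval -2.90 to 3.64), a ratio of 1.29 with an interval of 0.134 to 12.4. It did not pass limma's test over 274 assays (adjusted p = 0.986), and the two-sided exact permutation p was 1. The differences by round were 2.49, 1.88 and -3.25, or ratios of 5.61, 3.67 and 0.105. In bulk samples such as these, a different number of cells of a type and a different amount of miRNA per cell cannot be told apart.

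miR-21 was higher in the DC-primed sample than in its B cell-primed partner in all 3 rounds, but the difference did not pass the test over all assays. Its Ct was 16.05, 21.09 and 17.54 in the DC-primed samples, against 19.21, 20.75 and 20.29 in B cell-primed samples 1, 2 and 3. The levels were 10.13, 7.37 and 12.92 in DC-primed cells and 7.14, 6.37 and 7.34 in B cell-primed cells. The groups do not overlap, but the lowest DC-primed sample, that of round 2, exceeded the highest B cell-primed sample by only 0.03. In round 2 the raw Ct was later in the DC-primed than in the B cell-primed sample, so there the level was higher in DC-primed cells only after the per-sample number was subtracted.

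The mean level of miR-21 was 10.14 ± 2.77 in DC-primed cells and 6.95 ± 0.51 in B cell-primed cells (mean ± SD, n = 3 each). The difference was 3.19 ± 1.26 (SE; 95% confidence interval 0.31 to 6.06), a ratio of 9.10 with an interval of 1.24 to 66.6. By round it was 2.99, 1.00 and 5.58, or ratios of 7.94, 1.99 and 47.7. limma's unadjusted p was 0.0334 and its adjusted p over 274 assays 0.482. The two-sided exact permutation p was 0.1, the smallest that 3 samples against 3 allow. Over all tested assays limma called 0 of 274 (0%) at an adjusted p under 0.05, and 24 of 274 (8.76%) had an unadjusted p under 0.05, of which 4 (1.46%) were higher in DC-primed cells and 20 (7.3%) lower. The groups did not overlap, with DC-primed cells higher, for 15 of 274 assays (5.47%), and with DC-primed cells lower for 22 (8.03%), and 35 of 274 (12.8%) were higher in DC-primed cells in all 3 rounds. With the round as a block the miR-21 difference was 3.19 ± 0.90 (SE; limma adjusted p = 0.0792), and limma again called 0 of 274 (0%).

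**Figure D1:**
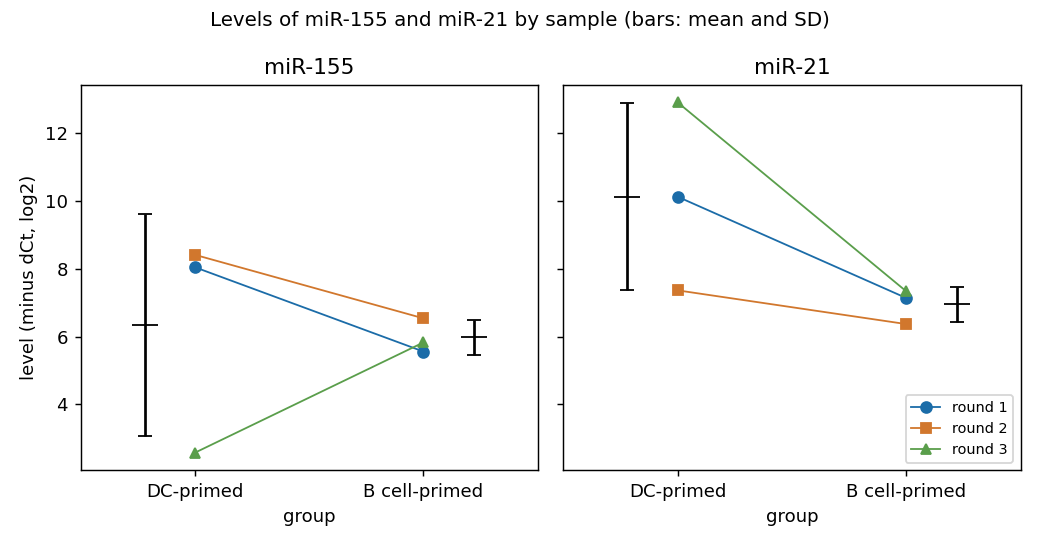
Level (minus dCt, log2) of miR-155 and miR-21 in DC-primed samples (left of each panel) and B cell-primed samples (right), with lines joining the samples of 1 round and black bars for the mean and SD of 3 samples. The miR-155 levels of DC-primed cells split, at 8.05 and 8.42 in rounds 1 and 2 and 2.58 in round 3, while each of the 3 miR-21 lines has its higher end on the DC-primed side.

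Both members were even in B cell-primed cells and uneven in DC-primed cells. The SD of the level in DC-primed cells was larger for miR-155 than for 97.8% of the 274 tested assays and larger for miR-21 than for 95.3%. In B cell-primed cells the members exceeded 37.96% and 38.69% of the assays. The median SD over the tested assays was 1.20 in DC-primed cells and 0.63 in B cell-primed cells.

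The members went in opposite directions in DC-primed sample 3. Relative to the mean of DC-primed samples 1 and 2, the level of miR-155 in sample 3 was -5.66, where the median of the tested assays was 0.28. Only 1 of the 274 assays, miR-222, shifted further down, at -6.12. The miR-21 level in sample 3 was 4.17 above the same mean, and 3 assays shifted further up, the human-named miR-424* at 8.04, miR-210 at 5.08 and miR-154 at 4.43. In raw cycles miR-155 came 8.80 cycles later in sample 3 and miR-21 came 1.03 cycles earlier (-1.03), while the median assay came 2.86 cycles later. The same contrast in B cell-primed cells, sample 3 against samples 1 and 2, gave -0.22 for miR-155 and 0.58 for miR-21 on the level scale. Next to miR-155 among the downward shifts in DC-primed sample 3 were miR-16, at -5.50, and miR-191, at -5.25, both often used as references for miRNA levels. These assays were picked after their values were seen.

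**Figure D2:**
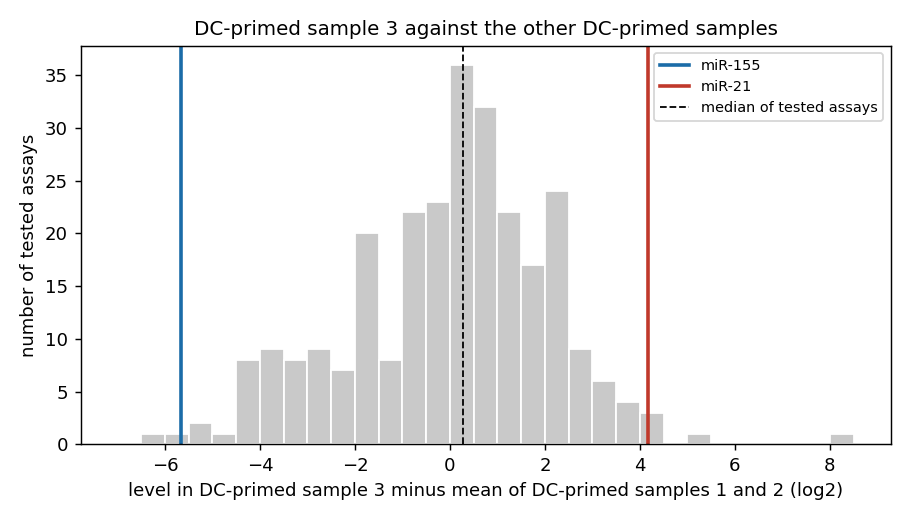
Distribution over the 274 tested assays of the level in DC-primed sample 3 minus the mean of DC-primed samples 1 and 2 (log2, x axis) by number of assays (y axis). miR-155, at -5.66, lies at the low end and miR-21, at 4.17, at the high end, on either side of the median of 0.28 (dashed line).

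Without DC-primed sample 3, miR-155 and miR-21 were higher in DC-primed cells by like amounts, and neither passed the test. The miR-155 difference was then 2.26 ± 0.73 (SE; 95% confidence interval 0.64 to 3.88; limma unadjusted p = 0.0111, adjusted p = 0.180). The miR-21 difference was 1.80 ± 0.92 (SE; -0.24 to 3.84; unadjusted p = 0.0778, adjusted p = 0.397). Of the 274 assays limma then called 2 (0.73%), neither of them a member. At an unadjusted p under 0.05 there were 42 (15.3%), 21 of them (7.66%) higher in DC-primed cells. Both DC-primed samples lay above all 3 B cell-primed samples for 40 of 274 assays (14.6%), and both members were among these.

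The level of miR-21 relative to miR-155 within a sample does not depend on the per-sample number and asks whether the members responded differently. It was 2.08, -1.05 and 10.34 in DC-primed samples 1, 2 and 3, against 1.58, -0.17 and 1.51 in B cell-primed samples 1, 2 and 3. In the samples of round 2 the miR-155 assay came up before that of miR-21, and in the other 4 samples after it. The primers differ between the assays, so the sign of a single value does not say which miRNA was more abundant. The assays also stand in different parts of the table, and in DC-primed sample 2 RNY3 came up 2.10 cycles later in the part with miR-21, where the largest offset of snoRD47 and cel-mir-67 in any sample was 0.82 cycles. With the RNY3 offset taken out, the round 2 values were 1.04 in the DC-primed and 0.27 in the B cell-primed sample. In the same order they were -1.235 and -0.03 by snoRD47 and -0.23 and 0.10 by cel-mir-67. The mean was 3.79 ± 5.88 in DC-primed cells and 0.97 ± 0.99 in B cell-primed cells (mean ± SD, n = 3 each), and the difference of 2.82 did not exceed the spread (exact permutation test, two-sided, p = 0.7, where 0.1 is the smallest value possible). By round the differences were 0.50, -0.88 and 8.83, so the mean rests on round 3. Without DC-primed sample 3 the difference in means was -0.46. With the offset taken out it was then 0.44 by RNY3, -0.49 by snoRD47 and -0.31 by cel-mir-67.

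**Figure D3:**
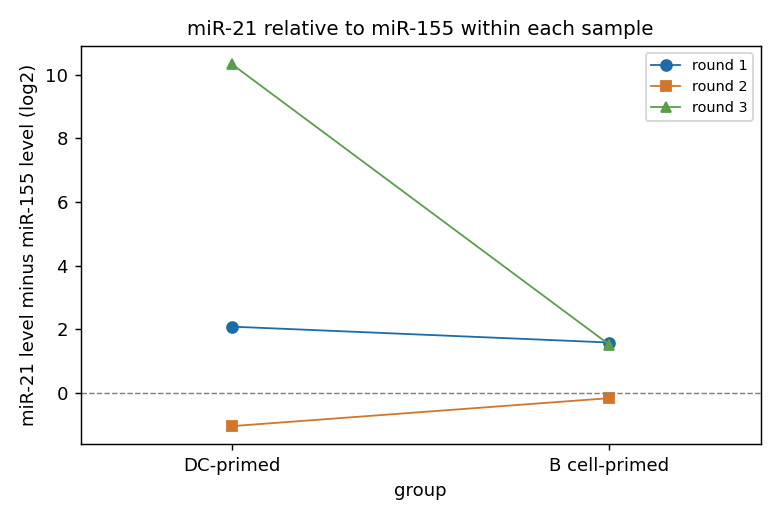
Level of miR-21 minus level of miR-155 in the same sample (log2, y axis) in DC-primed samples (left) and B cell-primed samples (right), with lines joining the samples of 1 round. Of the 6 samples, 5 lie between -1.05 and 2.08, and DC-primed sample 3 lies at 10.34.

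Both assays were among the earliest of the panel in nearly every sample. Ranked by Ct among the 341 to 350 miRNA assays with a value in a sample, miR-21 was in place 2, 7 and 2 in DC-primed cells and in place 6, 7 and 4 in B cell-primed cells. miR-155 was in place 5, 4 and 51 in DC-primed cells and in place 16, 6 and 11 in B cell-primed cells. DC-primed sample 3 was thus the sample in which miR-155 left the earliest assays. Mean ranks of miR-21 were 3.67 ± 2.89 in DC-primed cells and 5.67 ± 1.53 in B cell-primed cells (mean ± SD, n = 3 each; two-sided exact permutation p = 0.4). Those of miR-155 were 20 ± 26.9 in DC-primed cells and 11 ± 5 in B cell-primed cells (exact permutation p = 1), and the difference of 9 places was -6.5 without DC-primed sample 3.

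miR-21*, the passenger strand printed above, was later than miR-21 in all samples and did not pass the test. By Ct it was in place 182, 297 and 297 in the DC-primed samples and in place 295, 249 and 272 in the B cell-primed samples. Its Ct was 27.81, 33.04 and 35.92 in the DC-primed samples, against 30.73, 30.07 and 31.16 in B cell-primed samples 1, 2 and 3. The third DC-primed value lies above the limit of 35, so miR-21* was not among the 274 assays. With no limit on Ct, over 335 assays, its level differed by -0.27 ± 1.08 (SE; limma adjusted p = 0.984). Guide minus passenger was 11.76, 11.95 and 18.38 in DC-primed cells and 11.52, 9.32 and 10.87 in B cell-primed cells. The value of 18.38 rests on the miR-21* Ct beyond 35, so no mean or test is given over the 3 samples. Without DC-primed sample 3 the difference in means was 1.29. The 2 assays stand in different parts of the Ct table, and the controls with wells in both came up later in the part with miR-21*, by 3.06 to 6.28 cycles for RNY3, 6.43 to 12.31 for snoRD47 and 0.25 to 1.87 for cel-mir-67. The places by Ct and the guide minus passenger values above include this offset, so they do not measure how abundant the strands were. With that offset taken out in each sample, the difference without DC-primed sample 3 was 0.95 by RNY3, -0.98 by snoRD47 and 0.95 by cel-mir-67. The snoRD47 value includes the offset of 12.31, which came from DC-primed sample 2. There the 2 snoRD47 wells in the part with miR-21* differed by 7.65 cycles, so the reversed direction by snoRD47 is not reliable.

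Myeloid marker miRNAs had a high summed level in DC-primed samples 1 and 2, which DC-primed sample 3 did not share. The list held miR-223, the most myeloid-restricted of them, with miR-22, miR-99b, miR-125a-5p, miR-146b, miR-34a and miR-147. All 7 of 7 had a higher mean level in DC-primed cells, against 146 of the 274 tested assays. The log2 of their summed level was 7.41, 4.70 and 2.99 in DC-primed samples 1, 2 and 3, against 1.55, 2.22 and 2.06 in B cell-primed samples 1, 2 and 3. The sums of the groups did not overlap on the full list, but the sum of DC-primed sample 3 rests on miR-34a. Without miR-34a the sums were 7.39, 4.66 and 1.58 in DC-primed samples 1, 2 and 3, against 1.32, 1.79 and 0.82 in B cell-primed samples 1, 2 and 3, so that the groups overlap. Leaving out any other single miRNA of the list gave no overlap. In DC-primed sample 3 only miR-34a, miR-99b and miR-147 exceeded all 3 B cell-primed samples. The groups did not overlap, with DC-primed cells higher, for 2 of the 7, against 15 of the 274 tested assays (5.47%). The Ct of miR-223 was 20.82, 27.23 and 36.99 in the DC-primed samples and 32.14, 32.44 and 32.67 in B cell-primed samples 1, 2 and 3. DC-primed samples 1 and 2, which had the early miR-223 values, were also those with the high miR-155 levels, and their part in the result was not tested. DC-primed sample 3, with the highest miR-21 level, had the lowest myeloid sum of the DC-primed group. Its miR-223 Ct was later than that of any B cell-primed sample, but it lies above the Ct limit for tested assays. The Ct values of DC-primed sample 3 were also the latest on average over the tested assays. Whether myeloid cells contributed to the miR-21 level of any sample was not tested.

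**Figure D4:**
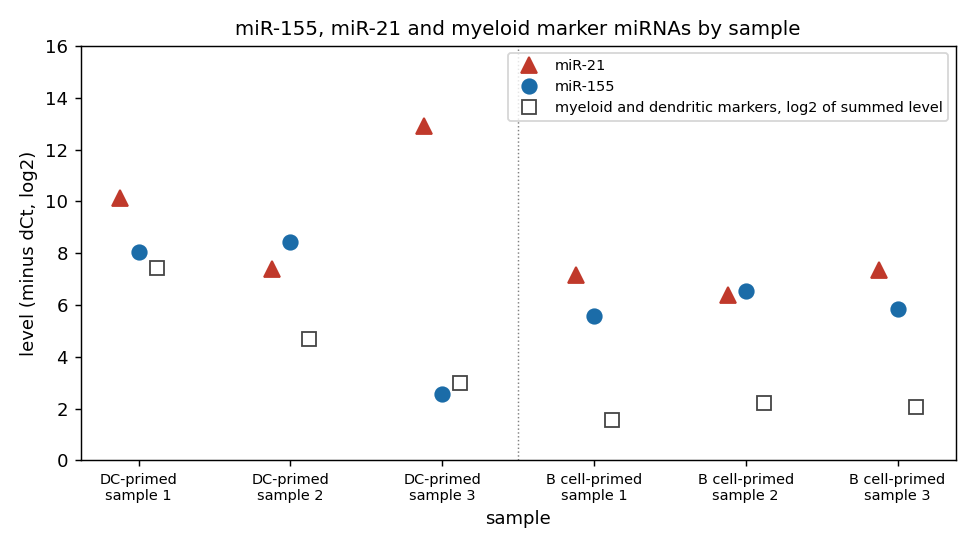
Levels (minus dCt, log2, y axis) of miR-21 (triangles) and miR-155 (circles), and log2 of the summed level of 7 myeloid and dendritic marker miRNAs (open squares), in each of the 6 samples (x axis). The squares lie at 7.41, 4.70 and 2.99 in DC-primed samples 1, 2 and 3, while miR-21 is highest in DC-primed sample 3 and miR-155 is lowest there.

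The other marker lists overlapped between the groups. The miRNAs listed for T cells and lymphocytes (miR-142-3p, miR-142-5p, miR-150 and miR-181a) had log2 sums of 5.20 to 8.05 in DC-primed cells and 4.06 to 6.41 in B cell-primed cells. Whether they are restricted to these cells was not tested, so their sum does not measure T cell content. Of these, miR-142-5p, miR-150 and miR-181a had a Ct below 35 in all samples, while miR-142-3p had no Ct in DC-primed sample 3. The highest of these sums, 8.05 in DC-primed sample 3, is therefore not a measured value, because it rests on a level of miR-142-3p that the authors filled in. B cell-associated markers (miR-148a and miR-150, of which miR-150 is also a T cell miRNA) had sums of 3.79 to 5.58 in DC-primed cells and 3.37 to 3.97 in B cell-primed cells. Erythroid markers gave -0.06 to 2.40 in DC-primed cells and 1.22 to 2.09 in B cell-primed cells. Stromal and endothelial markers gave -0.98 to 1.47 in DC-primed cells and 0.27 to 0.39 in B cell-primed cells. Of 6 markers of epithelia and other tissues only miR-200c and miR-1 were on the panel, with sums of -1.63 to 3.48 in DC-primed cells and 0.18 to 2.81 in B cell-primed cells.

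Among 16 miRNAs raised by T cell activation, all tested, 9 had a higher and 7 a lower level in DC-primed cells, and limma called none of them (0 of 274 over all assays, 0%). The median difference was 0.47 on the authors' scale and -0.86 without normalization. Its sign is not stable on the authors' scale, at -0.22, -0.44 and -0.76 without DC-primed sample 1, 2 or 3 and -0.07 without B cell-primed sample 1. The medians by round were 0.87, -0.09 and -0.69. Over all 274 assays the median was 0.07 on the authors' scale, with 146 higher and 128 lower, and -1.26 without normalization. miR-21 had the largest difference of the list, followed by miR-222 at 2.94 ± 1.64 (SE; limma adjusted p = 0.707), a regulator of the cell cycle inhibitor p27. miR-155 was in place 9 of 16. The smallest was miR-18a, of the miR-17/miR-92a cluster that promotes lymphocyte growth, at -3.62 ± 1.22 (adjusted p = 0.436). At an unadjusted p under 0.05 there were 5 of the 16, against 24 of 274 (8.76%) in all. They were miR-21 on the higher side and miR-17, miR-18a, miR-20a and miR-182 on the lower, and miR-17, miR-18a and miR-20a come from 1 transcript.

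Among 9 miRNAs that respond to NF-kappaB, 7 were tested. All 7 had a higher mean level in DC-primed cells on the authors' scale, against 146 of 274 over all tested assays. Their median was 0.87, and -0.46 without normalization, and limma called none (0 of 274 over all assays, 0%). By round the median was 2.49, 1.67 and -0.04, so round 3 did not share the direction. Of the 9, miR-147 and miR-146b are also among the myeloid markers. The largest was miR-147, which Toll-like receptor signals induce in macrophages, at 3.25 ± 1.17 (SE; limma adjusted p = 0.436), with miR-21 next. The smallest was miR-155. miR-146b and miR-9 were not tested because of late Ct values. Among 18 miRNAs abundant in naive T cells and lowered by activation, 17 were tested. Of these, 14 had a higher and 3 a lower level in DC-primed cells, against 146 higher and 128 lower over all 274 assays. The higher ones include let-7a, let-7b, let-7c, let-7d, let-7e, let-7f, let-7g and let-7i, which belong to the same family. The 17 assays are therefore not independent. limma called none of the 17, as it called 0 of 274 (0%) in all. Their median was 0.64, and -0.69 without normalization. By round it was 1.01, 1.10 and -0.45. miR-100 was the largest at 2.61 ± 1.23 (SE; limma adjusted p = 0.582) and miR-29c the smallest at -1.07 ± 1.49 (0.971).

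The profile over the 6 samples was compared with that of 202 other tested mouse guide-named assays by the root-mean-square distance of levels centred on each assay's mean. Nearest to miR-155 were miR-501-3p at a distance of 0.77, miR-30d at 0.81 and miR-146a, a brake on NF-kappaB signalling, at 0.84, where the median distance was 2.13. The levels of miR-146a were 2.95, 3.46 and -1.01 in DC-primed cells and 2.02, 1.57 and -0.05 in B cell-primed cells. Like those of miR-155, they were high in DC-primed samples 1 and 2 and lowest in DC-primed sample 3. miR-30d had levels of 4.77, 3.88 and 0.63 in DC-primed cells and 2.43, 2.46 and 2.39 in B cell-primed cells. Nearest to miR-21 were miR-329 at 1.54, miR-742 at 1.55 and miR-34a, a target of p53, at 1.61, against a median of 2.46, so no assay came as near to miR-21 as those to miR-155. All 3 were highest in DC-primed sample 3, miR-329 at 0.20, miR-742 at 6.47 and miR-34a at 2.32. Because the neighbours of both members were picked for nearness over these same samples, their shared patterns follow from the choice and are no separate support. The profiles of miR-155 and miR-21 were 3.72 apart, and miR-21 was in place 201 of 202 by nearness to miR-155.

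Subtracting another number per sample moves all assays alike, so it changes the difference of a member but not its distance from the median of the panel. The median difference of the 274 assays was -1.26 without normalization, 1.30 relative to RNY3 and snoRD47 and 1.20 relative to miR-16, miR-191 and miR-103. On the authors' scale miR-155 lay 0.30 and miR-21 3.12 above the median. Quantile normalization and the control wells of the same part of the table can change this distance. After quantile normalization it was -0.12 for miR-155 and 1.60 for miR-21, and relative to RNY3 and snoRD47 of the same part it was -0.085 for miR-155 and 2.98 for miR-21. The miR-21 difference itself was above 0 under every scale run, from 1.70 relative to the cel-mir-67 wells to 4.41 relative to RNY3 and snoRD47. miR-155 ranged from -1.12 relative to cel-mir-67 to 1.60 relative to RNY3 and snoRD47. The smallest limma adjusted p for miR-21 was 0.0792, with the round as a block, and that for miR-155 was 0.178, with DC-primed sample 3 left out of the fit and the filter.

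**Figure D5:**
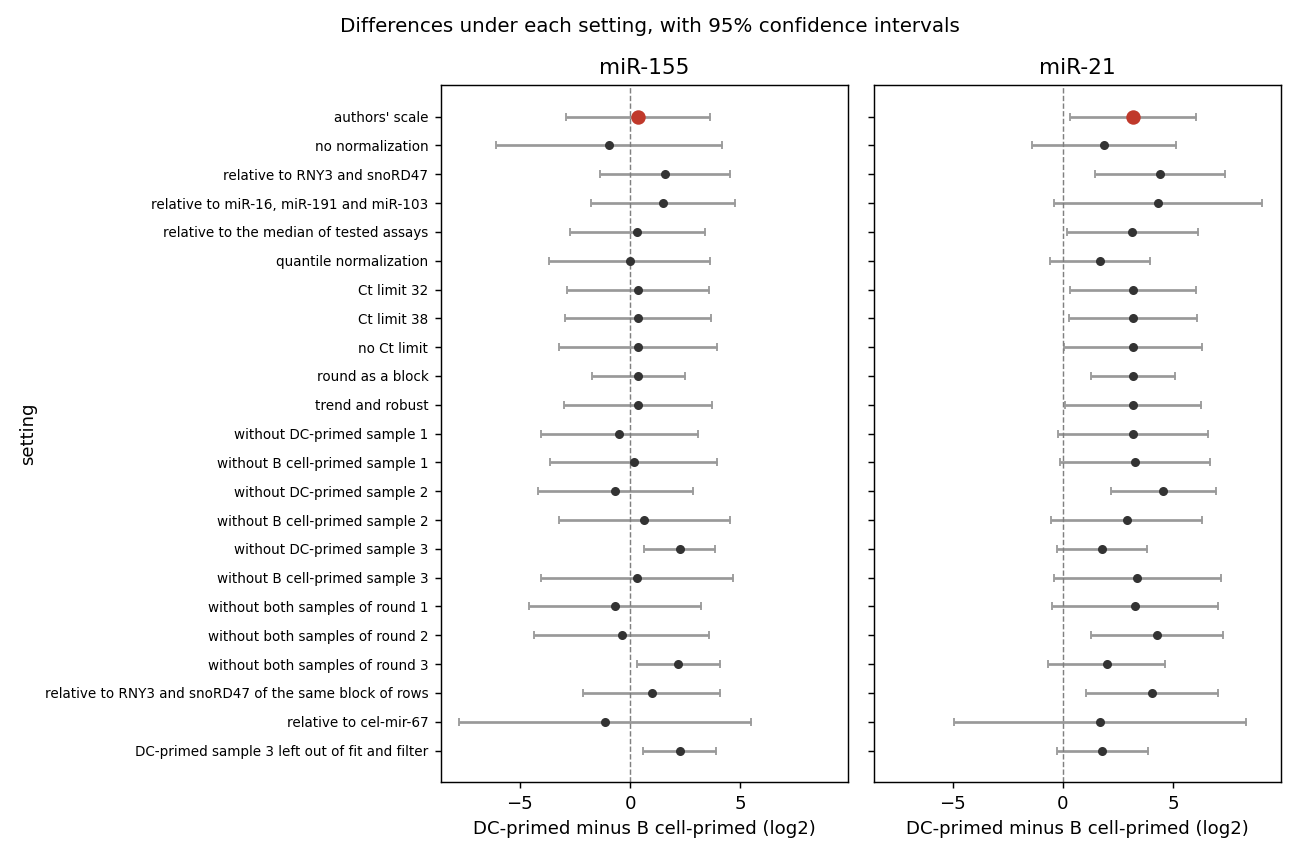
Difference in level, DC-primed minus B cell-primed (log2, x axis), of miR-155 and miR-21 under each setting (y axis), with limma's 95% confidence intervals and the authors' scale in red. All miR-21 points lie above 0, and those of miR-155 lie from -1.12 to 2.26.

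The authors' deposited table gives a fold change of 1.29 for miR-155, 9.10 for miR-21 and 0.827 for miR-21*, DC-primed over B cell-primed. The authors' deposited table also gives p-values of a paired test on dCt over the 3 rounds, 0.858 for miR-155, 0.138 for miR-21 and 0.873 for miR-21*. Of 345 assays in the authors' deposited table, 18 had a p under 0.05 and neither member was among them. For the differences by round, the exact sign-change test gave p = 0.25 for miR-21, the smallest that 3 rounds allow, and p = 1 for miR-155.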

How the data were processed

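Per the labels' protocols, mirVana-extracted total RNA was freed of DNA and polyadenylated, and cDNA carrying a universal tag was amplified with 1 forward primer per miRNA and a universal reverse primer. The instrument and the Ct calling were not given in the sources used here. Per the file headers, the deposited tables hold raw Ct, a score in cycles, and the authors' dCt on a log2 scale, which is Ct minus 1 number per sample, described as the geometric mean of its Ct values. Each file's name contradicts its header, and the values match the headers. The authors also deposited p-values of a two-tailed paired test and a fold change, a ratio with DC-primed on top, per the file headers. No value of miR-155 or miR-21 was filled in, and their Ct and dCt agree within rounding.

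Samples were grouped by title. The labels do not say that rounds came from separate mice, so the p-values cover only the spread among these samples, which may be technical. An assay was tested if its Ct was below 35 in all 6 samples, which left 274 of 345. Differences came from limma 3.58.1 under R 4.3.3, with lmFit and eBayes and without a block, with Benjamini-Hochberg adjustment over all tested assays, and the fit was tested on simulated data. Single values were compared by exact permutation over samples in scipy 1.17.1. The 3 miRNA lists, the marker lists and both members were chosen with earlier results of these data known. Named miRNAs are the members, miR-21*, the extremes of the 3 lists, the 3 nearest profiles of each member and the alternative references. Others were named after their values were seen. The Ct table runs in 4 parts of 94 rows with control wells at the same places in each. Across assays, the deviations of the 2 samples of a round from their group means had correlations of 0.16, 0.14 and 0.46 in rounds 1, 2 and 3. The round numbers in the titles were used as pairs in the block fit. The correlation of DC-primed sample 1 with B cell-primed sample 2 was larger than those of rounds 1 and 2, at 0.33, so the pairing was weak in these rounds. Alternatives were other scales, Ct limits of 32, 38 and none, the round as a block, and samples or rounds left out. Plots were made in matplotlib 3.10.9 and Python 3.11.15.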

Additional observations from a re-analysis of the deposited data

How the results depend on the processing

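The miR-21 difference kept its direction under all 23 alternatives run, from 1.70 to 4.57, and passed an adjusted p of 0.05 under none. The miR-155 difference also passed under none, and its sign turned without normalization (-0.96), after quantile normalization (-0.018), relative to cel-mir-67 (-1.12), and without both samples of round 1 (-0.69) or round 2 (-0.38). With single samples left out it ran from -0.67 to 2.26, and that of miR-21 from 1.80 to 4.57. The cause of these turns was not tested. With the round as a replicate block the differences were 0.37 for miR-155 and 3.19 for miR-21, and the block changed no call; the pairing gave the same mean of miR-21 minus miR-155, 2.82. That value was -0.19 without round 3, and ran from -0.46 to 5.24 with single samples left out. The rank differences ran from -6.50 to 17.0 places for miR-155 and from -3.67 to -1.17 for miR-21. Over all assays limma called 0 to 2 with single samples left out, the 2 being without DC-primed sample 3, and 5 when that sample was left out of the filter too.

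The median of the activation-raised list was -0.86 without normalization, 1.70 relative to RNY3 and snoRD47 and 1.60 relative to miR-16, miR-191 and miR-103, and ran from -0.76 to 0.15 with single samples left out. For the NF-kappaB-responsive list it was -0.46 without normalization and 2.68 with no Ct limit, when miR-146b and miR-9 enter, with a range of 0.81 to 2.02. For the naive-enriched list it was -0.69, 1.87 and 1.76 on those 3 scales, with a range of 0.11 to 1.32. The scale relative to control wells of the same part of the table, that relative to cel-mir-67, and the filter without DC-primed sample 3 were chosen after seeing the data, as were leaving out samples for the lists, all alternatives for the naive-enriched list, the offsets by single controls and the myeloid sums with a miRNA left out. With 3 samples a group, a Ct read once per sample and limma intervals about 6 units wide, differences of the size seen for miR-155 are not resolved.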

Other observations

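The panel has 9 wells for cel-mir-67, a miRNA of Caenorhabditis elegans, and the labels do not say whether its RNA was added to the samples. Its mean Ct was 18.9, 25.1 and 17.6 in DC-primed samples 1, 2 and 3, against 23.2, 19.6 and 19.3 in B cell-primed samples 1, 2 and 3. These values did not follow the mean Ct of the tested assays, which was latest in DC-primed sample 3, where cel-mir-67 was earliest.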
